A study of Mus musculus with 9 samples.

Results

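Retinal ganglion cells (RGCs) are the projection neurons of the retina, and their fate is set by a cascade of transcription factors. Of these genes, 9 were followed by name, *Atoh7*, *Pou4f1*, *Pou4f2*, *Pou4f3*, *Isl2*, *Tbr1*, *Ebf1*, *Sox11* and *Sox4*. All 9 were found among the 25239 gene names of every table, each in a single row with no other listed gene overlapping it, and all 9 passed the filter of a mean of at least 1 TPM (the transcript level that StringTie gives per gene length and library total), as 15198 of the 25239 genes did. Their choice used no measured value of these libraries, though earlier results of the data were known when it was made.

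The libraries came from whole retinas of C57BL/6J mice at P42 (postnatal day 42), with a pair of retinas in each library. There were 3 libraries of wild type (+/+), 3 of *Rbpms*-CreERT2/+ (Cre/+) and 3 of *Rbpms*-CreERT2/CreERT2 (Cre/Cre) mice. In the knock-in allele, the P2A-CreERT2 cassette follows the last codon of *Rbpms*, a gene for an RNA-binding protein used as a pan-RGC marker, so that the *Rbpms* promoter drives a tamoxifen-inducible Cre recombinase. The allele was made by genome editing of C57BL/6J zygotes, no floxed or reporter allele is named for these retinas, and the labels name no tamoxifen. The question put to these libraries was whether the knock-in alleles change the retinal transcriptome, and ganglion cells are a small part of the tissue that was sequenced.

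The 9 factors act at different steps. *Atoh7* encodes a basic helix-loop-helix protein that makes retinal progenitors competent for the ganglion cell fate and binds E-boxes. *Pou4f2* (Brn3b) is among the early genes downstream of it and, with the LIM homeodomain protein ISL1, drives the differentiation and survival of ganglion cells. *Pou4f1* (Brn3a) and *Pou4f3* (Brn3c) are its paralogs, kept in overlapping sets of adult ganglion cells. *Isl2*, *Tbr1* and *Ebf1* mark or specify ganglion cell subsets and their projections, and *Sox4* and *Sox11* are SoxC genes needed for the generation of ganglion cells in the embryo.

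The sequences before the transcription starts of *Atoh7*, *Tbr1* and *Pou4f2* are shown because they are the first gene of the cascade, the member with the most motif matches, and the member with the smallest unadjusted p in Cre/Cre against +/+. They are the 250 bases before the start in RefSeq's annotation of GRCm38.p6, the assembly of mm10, written 5′ to 3′ on the gene's strand at chr10:63099535-63099784 (plus strand, *Atoh7*), chr2:61804203-61804452 (plus strand, *Tbr1*) and chr8:78436648-78436897 (minus strand, *Pou4f2*). Capitals mark an E-box form, CAGGTG or its reverse complement CACCTG, and the homeodomain core TAATTA, which reads the same on both strands. Other forms of the E-box were neither searched for nor marked.
Atoh7: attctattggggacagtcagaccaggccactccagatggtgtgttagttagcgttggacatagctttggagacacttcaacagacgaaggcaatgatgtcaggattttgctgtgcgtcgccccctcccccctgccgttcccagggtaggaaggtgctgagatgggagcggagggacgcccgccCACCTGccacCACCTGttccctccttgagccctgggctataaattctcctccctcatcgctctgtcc
Tbr1: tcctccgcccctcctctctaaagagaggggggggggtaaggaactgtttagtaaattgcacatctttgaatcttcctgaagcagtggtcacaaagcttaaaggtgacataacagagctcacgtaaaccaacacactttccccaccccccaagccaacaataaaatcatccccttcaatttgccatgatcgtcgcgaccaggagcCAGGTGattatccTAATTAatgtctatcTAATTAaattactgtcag
Pou4f2: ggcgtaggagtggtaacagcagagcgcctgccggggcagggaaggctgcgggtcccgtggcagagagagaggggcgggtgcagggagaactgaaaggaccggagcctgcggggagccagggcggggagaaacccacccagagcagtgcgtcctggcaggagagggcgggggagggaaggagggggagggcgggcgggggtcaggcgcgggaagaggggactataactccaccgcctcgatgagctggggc

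Windows from 250 bases before to 50 after the start were searched for these letters on both strands in 8 members, with 9 windows in all, since *Ebf1* has 2. *Pou4f3* was not searched. The window of *Atoh7* held this E-box form at 2 places, with first bases 67 and 57 bases before the start. Those of *Tbr1* and *Pou4f1* held it once, 46 and 41 bases before the start. The other 5 members searched had none in these windows. Among all 32851 windows of this length, 20.2% held this E-box form, as did 22.6% of genes in any of their windows. The 3 of 8 members are a description only. TAATTA occurred at 2 places in the window of *Tbr1*, 33 and 18 bases before the start, in none of the other members searched, and in 5.29% of all windows. The 2 motifs do not overlap in these windows.

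Not all libraries were alike apart from genotype. Ribosomal precursor RNA (Rn45s) made up 9.21% of the TPM of Cre/Cre replicate 1 and at most 0.336% elsewhere, which lowers every other TPM of that library. Y-linked transcripts were present in 3 libraries, Cre/+ replicate 3 and Cre/Cre replicates 1 and 3, and in none of +/+. Xist was at 2.08 to 3.16 TPM in these 3 and at 516 to 585 TPM in the other 6. Aligned depth, from the ratio of coverage to FPKM, was 4.05 to 4.65 gigabases. All 22 genes of a list of mature ganglion cell genes were tested, and rod and cone genes, amacrine, bipolar, horizontal and Müller glial genes had none at 0 in all libraries. The summed TPM of 8 lens genes ran from 13.0 in Cre/+ replicate 2 to 959 in Cre/Cre replicate 2. That of 5 blood genes was 150.5 to 182 in +/+, 92.5 to 105 in Cre/+ and 185 to 300.5 in Cre/Cre, without overlap between the genotypes. Summed TPM was 7.15 to 23.1 for 7 pigment epithelium genes, 63.8 to 88.8 for 4 astrocyte genes and 14.3 to 17.8 for 5 microglia genes over the 9 libraries, and 34540 to 42270 for 8 rod and cone genes, 4546 to 5583 for 6 Müller glial genes and 162 to 203 for 4 horizontal cell genes. The knock-in locus itself, *Rbpms*, had 43.2, 38.4 and 43.4 TPM in +/+, 31.3, 32.2 and 33.1 TPM in Cre/+, and 19.7, 19.1 and 24.2 TPM in Cre/Cre.

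In +/+ retinas the 9 factors lay between 2.08 and 23.0 mean TPM. *Pou4f1* (23.0 ± 0.737 TPM, SD, n = 3), *Ebf1* (21.0 ± 2.07) and *Sox4* (19.4 ± 0.349) were the highest, and the ranges of neighbours in this order overlapped, so *Pou4f1* and *Ebf1*, or *Ebf1* and *Sox4*, were not separated in level. A gap followed, with *Pou4f2* at 12.3 ± 0.533, *Isl2* at 8.38 ± 1.02 and *Pou4f3* at 6.70 ± 0.354 mean TPM. From *Sox4* to *Pou4f2*, *Isl2* and *Pou4f3*, neighbours in this order did not overlap. *Atoh7* (4.80 ± 1.71), *Tbr1* (3.07 ± 0.627) and *Sox11* (2.08 ± 0.419) were the lowest in mean TPM, and each overlapped with its neighbours.

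The order was the same with FPKM and without each +/+ replicate in turn. In Cre/+ retinas *Ebf1* stood above *Pou4f1*, and *Pou4f3* above *Isl2*, in mean TPM. In Cre/Cre retinas *Pou4f1* was again first and *Pou4f3* (6.64 TPM) again above *Isl2* (6.38 TPM), with overlapping ranges. Even the highest member was no abundant transcript of whole retina, since *Pou4f1* stood at percentile 44.8 of the mean TPM of the genes tested and *Sox11* at percentile 6.05. Mean read coverage over the bases of *Pou4f1* was 18.4 to 33.1 between libraries, that of *Atoh7* was 0.838 to 8.73 and that of *Sox11* was 0.745 to 3.40.

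**Figure D1:**
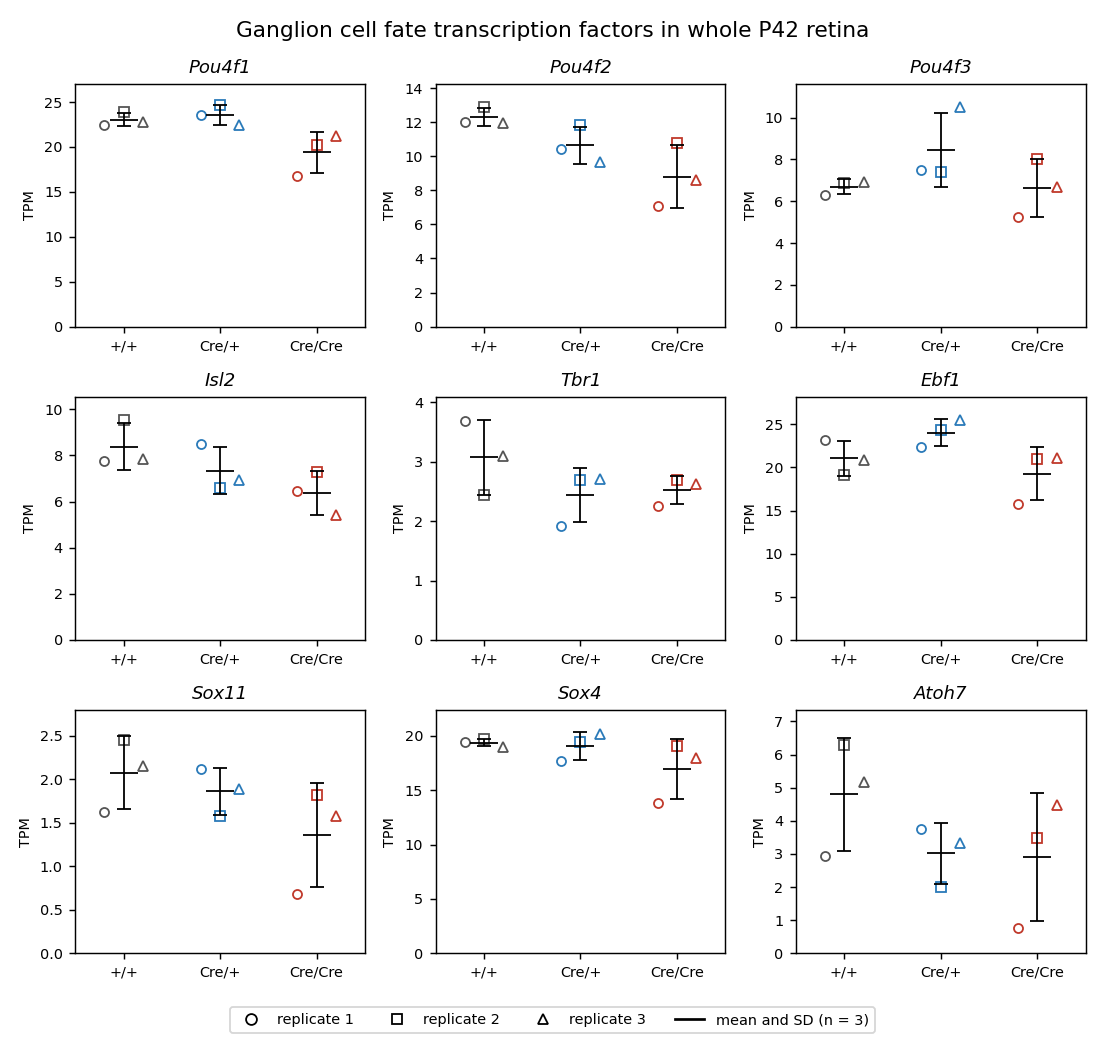
TPM of each ganglion cell fate factor (y axis, from 0) in the 3 libraries of +/+, Cre/+ and Cre/Cre retinas, with marks for the replicate and black lines for the mean and SD. Cre/Cre replicate 1 is the lowest library for 7 of the 9 genes, and every knock-in library lies below every +/+ library for *Pou4f2* in TPM as deposited.

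*Atoh7*, the first gene of the cascade, had 2.94, 6.30 and 5.17 TPM in +/+, 3.75, 1.99 and 3.34 TPM in Cre/+, and 0.765, 3.49 and 4.48 TPM in Cre/Cre. Relative to the mean, its +/+ libraries varied more than those of the other 8 members, and the genotypes overlapped. The fitted log2 fold change of TPM + 1 in Cre/Cre against +/+ was -0.68, with a 95% interval from -1.68 to 0.32 (limma, adjusted p = 0.838), an interval that holds both no difference and a 2-fold lower level. In Cre/+ it was -0.51 (-1.51 to 0.49, adjusted p = 0.679). Without Cre/Cre replicate 1 the value in Cre/Cre was -0.18.

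*Pou4f2* had 11.998, 12.9 and 11.97 TPM in +/+, 10.4, 11.8 and 9.69 TPM in Cre/+, and 7.08, 10.8 and 8.59 TPM in Cre/Cre. In TPM as deposited, all 6 knock-in libraries lay below all 3 of +/+, as in 3.63% of all genes tested, while Cre/+ and Cre/Cre overlapped. After a rescaling by median ratios, described further on, the separation in Cre/+ was lost, with 11.78 TPM in Cre/+ replicate 2 and 11.71 TPM in +/+ replicate 3. Mean TPM was 86.6% of +/+ in Cre/+ and 71.7% in Cre/Cre. Fitted log2 fold changes were -0.45 in Cre/Cre (-0.75 to -0.16, unadjusted p = 0.00521 in limma, adjusted p = 0.543) and -0.19 in Cre/+ (-0.49 to 0.10, adjusted p = 0.607), and neither passed the adjusted test. These 2 comparisons share the +/+ libraries. In RNA of whole retina, fewer ganglion cells and less of this RNA in each cell cannot be told apart. In stained whole-mounts, the study reported no significant difference between the genotypes in the numbers of RBPMS-positive or POU4F1-positive cells.

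The presence of Y-linked transcripts went with the level of *Pou4f2*. The 3 libraries that hold them had 7.08 to 9.69 TPM of *Pou4f2* and the other 6 had 10.4 to 12.9 TPM. *Pou4f2* was the only member in which these 3 libraries did not overlap with the other 6, and 2.38% of all genes tested were lower and 0.546% higher without overlap in the same split. Within Cre/+, the library with Y-linked transcripts was the lowest of the 3, and within Cre/Cre the pair with them lay below the third. No +/+ library has Y-linked transcripts, so sex and genotype are partly mixed in this design. Among the 6 libraries without them, *Pou4f2* had 10.4, 11.8 and 10.8 TPM in the 3 knock-in libraries, below the 3 of +/+ as in 8.48% of all genes, and after rescaling by median ratios it overlapped. Cre/Cre was then at -0.18 on the log2 scale (limma, adjusted p = 0.873), with a single Cre/Cre library that is assumed to vary like the others, and with Xist as a covariate in all 9 libraries it was -0.25 (adjusted p = 0.973).

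*Pou4f1* had 22.4, 23.9 and 22.8 TPM in +/+, 23.6, 24.7 and 22.5 TPM in Cre/+, and 16.8, 20.2 and 21.2 TPM in Cre/Cre. The Cre/Cre libraries were below those of both other genotypes, and Cre/+ overlapped with +/+. Mean TPM in Cre/Cre was 84.2% of +/+, with a log2 fold change of -0.24 (-0.46 to -0.03, unadjusted p = 0.0278 in limma, adjusted p = 0.664). In Cre/+ it was 0.03 (-0.18 to 0.24, adjusted p = 0.931).

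*Pou4f3* had 6.29, 6.88 and 6.92 TPM in +/+, 7.50, 7.38 and 10.5 TPM in Cre/+, and 5.24, 8.01 and 6.67 TPM in Cre/Cre. The Cre/+ libraries all lay above +/+, with replicate 3 far above the others, and the Cre/Cre libraries spread on both sides of +/+. On the log2 scale the difference was 0.28 in Cre/+ (-0.07 to 0.63, limma, adjusted p = 0.528) and -0.03 in Cre/Cre (-0.37 to 0.32, adjusted p = 0.991). Without Cre/+ replicate 3 the value in Cre/+ was 0.13.

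The composition of the Brn3 family was compared within each library, a choice made after the values were seen and given with no test. Such shares do not depend on how a library is scaled. They add up to the whole in each library, so a lower share of 1 paralog raises the others and the shares are not separate results. How often shares within other gene families separate in these splits was not counted. *Pou4f2* made up 29.5%, 29.6% and 28.7% of the summed TPM of the 3 paralogs in +/+, 25.1%, 27.0% and 22.7% in Cre/+, and 24.3%, 27.6% and 23.6% in Cre/Cre, so all 6 knock-in libraries were below +/+. The share of *Pou4f3* was 15.4% to 16.6% in +/+, 16.8% to 24.6% in Cre/+ and 18.0% to 20.6% in Cre/Cre, above +/+ in all 6. The share of *Pou4f1* was 54.7% to 55.1% in +/+ and 51.8% to 58.1% over the knock-in libraries, on both sides of +/+. *Pou4f2* per *Pou4f3*, as a ratio of TPM, was 1.73 to 1.91 in +/+, 0.923 to 1.60 in Cre/+ and 1.29 to 1.35 in Cre/Cre. The 3 libraries with Y-linked transcripts had the lowest shares of *Pou4f2*, 22.7% to 24.3%, against 25.1% to 29.6% in the other 6. These shares hold the same *Pou4f2* values that were compared in this split above, so they are no separate result.

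**Figure D2:**
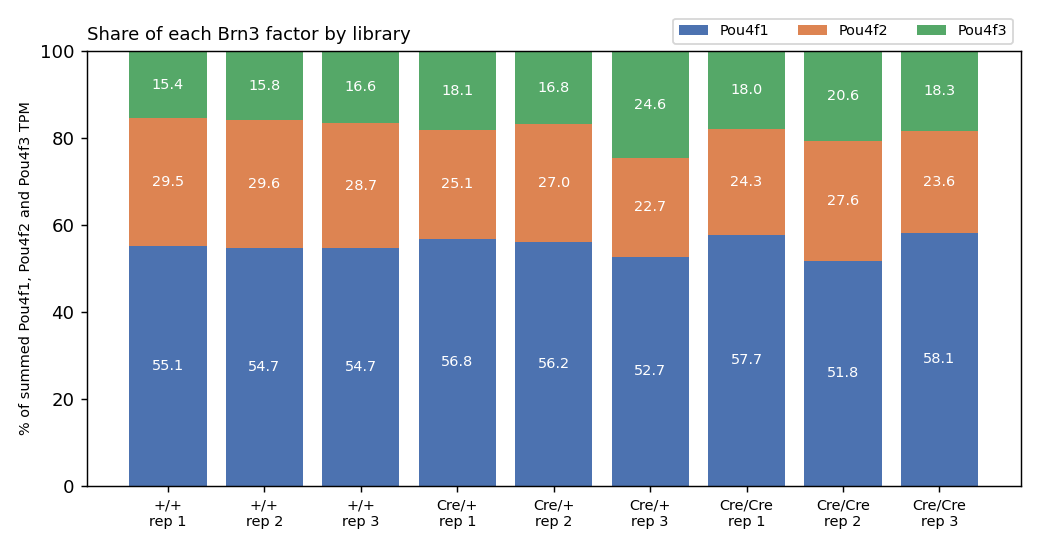
Share of *Pou4f1*, *Pou4f2* and *Pou4f3* in their summed TPM (y axis, percent) in each of the 9 libraries. The middle segment, *Pou4f2*, is 28.7% to 29.6% in +/+ and at most 27.6% in the knock-in libraries.

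*Isl2*, a LIM homeodomain factor of ganglion cells with contralateral projections, had 7.74, 9.55 and 7.84 TPM in +/+, 8.49, 6.58 and 6.93 TPM in Cre/+, and 6.44, 7.28 and 5.41 TPM in Cre/Cre. The Cre/Cre libraries were all below +/+, and the Cre/+ libraries overlapped with both. Mean TPM in Cre/Cre was 76.1% of +/+, with a log2 fold change of -0.35 (-0.67 to -0.03, unadjusted p = 0.0333 in limma, adjusted p = 0.681). *Isl1*, its paralog, which bipolar and amacrine cells also express, stood far higher in TPM (91.5 ± 6.85 in +/+, n = 3) and had a log2 fold change of -0.05 (limma, adjusted p = 0.978).

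*Tbr1*, a T-box factor of a subset of ganglion cells, had 3.69, 2.43 and 3.09 TPM in +/+, 1.92, 2.70 and 2.70 TPM in Cre/+, and 2.25, 2.69 and 2.62 TPM in Cre/Cre. The genotypes overlapped, with log2 fold changes of -0.24 in Cre/+ and -0.20 in Cre/Cre (limma, adjusted p = 0.639 and 0.896). Its relative *Eomes* (Tbr2), which marks melanopsin ganglion cells among others, had -0.23 in Cre/Cre on the same scale (limma, adjusted p = 0.864).

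*Ebf1*, a helix-loop-helix factor also found in amacrine cells and vessels, had 23.2, 19.1 and 20.8 TPM in +/+, 22.3, 24.3 and 25.4 TPM in Cre/+, and 15.7, 21.0 and 21.1 TPM in Cre/Cre. The knock-in genotypes did not overlap with each other, and both overlapped with +/+. The log2 fold change was 0.19 in Cre/+ and -0.13 in Cre/Cre against +/+ (limma, adjusted p = 0.567 and 0.895), and -0.31 in Cre/Cre against Cre/+ (-0.56 to -0.06, unadjusted p = 0.0177, adjusted p = 0.74). Without Cre/Cre replicate 1 the value in Cre/Cre against +/+ was 0.0046. *Ebf3* was at -0.21 on the same scale in Cre/Cre against +/+ (limma, adjusted p = 0.776).

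*Sox4* had 19.5, 19.7 and 19.0 TPM in +/+, 17.7, 19.5 and 20.2 TPM in Cre/+, and 13.8, 19.1 and 18.0 TPM in Cre/Cre. *Sox11* had 1.63, 2.45 and 2.15 TPM in +/+, 2.12, 1.58 and 1.89 TPM in Cre/+, and 0.680, 1.82 and 1.58 TPM in Cre/Cre. In both SoxC genes the genotypes overlapped and Cre/Cre replicate 1 was the lowest of all 9 libraries. *Sox4* had a fitted log2 fold change of -0.19 in Cre/Cre (-0.44 to 0.05, limma, adjusted p = 0.814). For *Sox11* it was -0.41 (-0.89 to 0.07, limma, adjusted p = 0.787). Without Cre/Cre replicate 1 these values were -0.06 for *Sox4* and -0.18 for *Sox11*, and *Pou4f1* was at -0.15. *Sox12*, the third SoxC gene, had a log2 fold change of -0.02 (limma, adjusted p = 0.988).

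**Figure D3:**
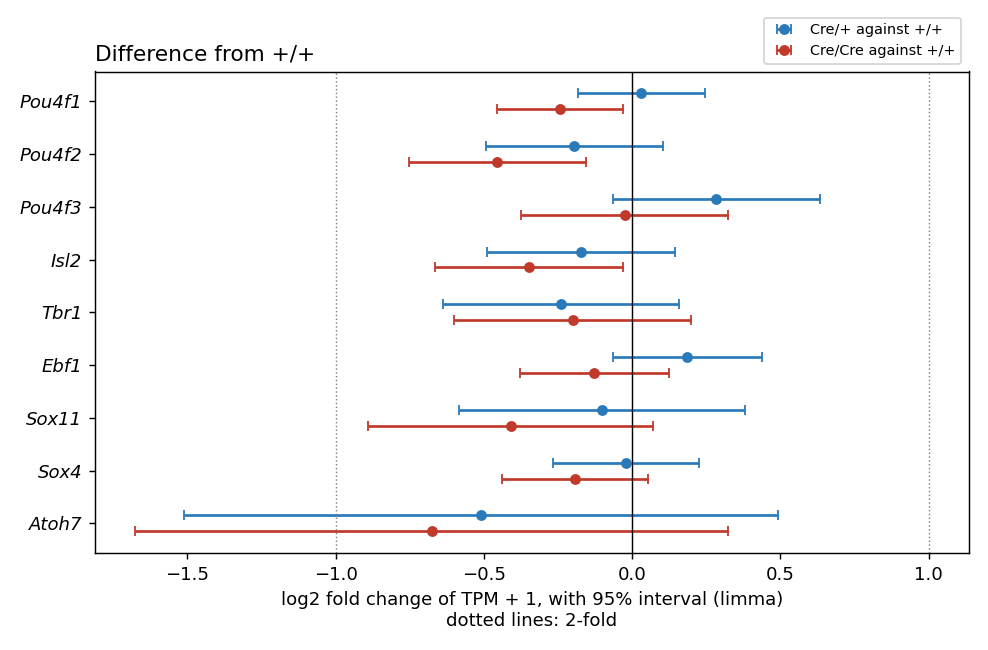
Log2 fold change of TPM + 1 (x axis) of the 9 factors in Cre/+ (blue) and Cre/Cre (red) against +/+, with 95% intervals from limma that are not adjusted for the number of genes. Intervals in Cre/Cre lie wholly below 0 for *Pou4f1*, *Pou4f2* and *Isl2*, and only those of *Atoh7* reach the dotted lines at 2-fold.

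By limma, with adjustment over all 15198 genes and a limit of 0.05, 0 of the 9 factors differed in Cre/+ against +/+, in Cre/Cre against +/+, in Cre/Cre against Cre/+, or with the number of knock-in alleles. The share of all genes called was 0.00658%, 0.00658%, 0.0132% and 0.00658%, so with so few calls a count of 0 among 9 says little about the members. The smallest adjusted p of a member was 0.528 in Cre/+ (*Pou4f3*) and 0.543 in Cre/Cre (*Pou4f2*). No tool other than limma was run on the members.

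In Cre/+ the factors lay on both sides of +/+. At an unadjusted p under 0.05 in limma, 0 of 9 were lower and 0 of 9 higher, where 5.82% and 4.9% of all genes were. In TPM as deposited, *Pou4f2* lay below +/+ in all libraries and *Pou4f3* above it, 1 member in each direction, where 10.3% of all genes were lower and 11.9% higher without overlap. The log2 fold change was below 0 in 6 of 9 members, against 49.6% of all genes, and the median over the members was -0.10 beside 0.0014 for all genes.

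In Cre/Cre 3 of 9 factors, *Pou4f1*, *Pou4f2* and *Isl2*, were lower than +/+ at an unadjusted p under 0.05 in limma, where 5.39% of all genes were. These 3 were also the members whose Cre/Cre libraries all lay below +/+, as did those of 8.05% of all genes, and 0 members lay above without overlap, against 2.7%. None of the 9 was higher at an unadjusted p under 0.05, against 1.58% of all genes. The log2 fold change was below 0 in 9 of 9 members, against 57.7% of all genes, with a median of -0.24 over the members and -0.02 over all genes. *Pou4f3*, at -0.03, was at the median of all genes.

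The lower values in Cre/Cre depended in part on single libraries. Cre/Cre replicate 1, the library with the high Rn45s, was the lowest of all 9 for 7 of the 9 members. It was still the lowest for the same 7 after the rescaling described further on, with 18.3 TPM of *Pou4f1* and 15.1 TPM of *Sox4*. The share of all genes lowest in this library was not counted, and the cause was not tested. The summed TPM of the 9 factors was 99.4, 103 and 99.8 in +/+, 97.8, 100.5 and 103 in Cre/+, and 68.8, 94.3 and 89.7 in Cre/Cre. Without Cre/Cre replicate 1, *Pou4f2* was the only member lower at an unadjusted p under 0.05, the median was -0.15, and *Pou4f3* (0.11) and *Ebf1* (0.0046) were no longer below 0. The count was also 1, *Pou4f2*, without +/+ replicate 2, and it was 5 without Cre/Cre replicate 2, the Cre/Cre library nearest to +/+ in *Pou4f2* and *Isl2*. With Xist as a covariate, 0 members were lower at an unadjusted p under 0.05. Xist was low only in knock-in libraries, so sex and genotype are partly mixed in that fit. That fit separates them only through differences between libraries of the same knock-in genotype. In the 6 libraries without Y-linked transcripts a single Cre/Cre library is left, and the median was -0.13. Shares of all genes were not computed in these or the other alternative fits, so such counts have no reference.

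A rescaling of TPM, in which a library is divided by the median of its gene-wise ratios to the average library, was also tried. The factor of Cre/Cre replicate 1 was 0.917 and the factors of the others 0.985 to 1.03. The Cre/Cre libraries of *Pou4f1*, *Pou4f2* and *Isl2* lay below +/+ on this scale too, while those of Cre/+ for *Pou4f2* did not. At an unadjusted p under 0.05 in limma, *Pou4f1* and *Pou4f2* were lower in Cre/Cre and *Isl2* no longer was. The shares of all genes with such a separation or such a p in Cre/Cre were not computed on this scale. These counts therefore have no reference. The highest Cre/Cre library was at 20.6 TPM of *Pou4f1*, against 22.1 in the lowest +/+ library. For *Pou4f2* these values were 10.5 and 11.7, and for *Isl2* 7.14 and 7.61. Their log2 fold changes were -0.22, -0.43 and -0.32 (limma, adjusted p = 0.544, 0.489 and 0.601).

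**Figure D4:**
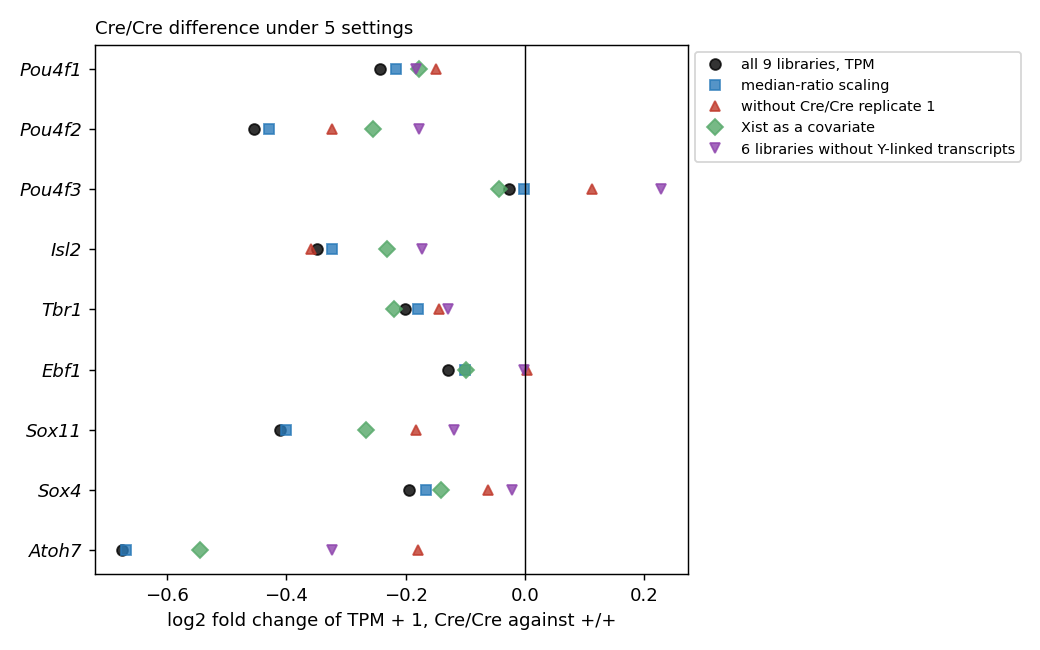
Log2 fold change of TPM + 1 (x axis) in Cre/Cre against +/+ for the 9 factors under the main fit and 4 alternatives, each marked by a colour and shape. *Pou4f2* runs from -0.45 with all 9 libraries to -0.18 in the 6 without Y-linked transcripts, and *Pou4f3* lies on both sides of 0.

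Between the knock-in genotypes, *Pou4f1* and *Ebf1* were lower in Cre/Cre than in Cre/+ at an unadjusted p under 0.05 in limma, 2 of 9 members where 4.2% of all genes were, and 0 of 9 were higher where 2.38% were. The same 2 members did not overlap, against 7.23% of all genes lower and 4.76% higher without overlap. The log2 fold change of *Pou4f1* was -0.27 (-0.49 to -0.06, unadjusted p = 0.0149, adjusted p = 0.74). It was below 0 in 8 of 9 members, against 59.2% of all genes, the exception being *Tbr1* at 0.04. Without Cre/Cre replicate 1 neither *Pou4f1* nor *Ebf1* was lower at an unadjusted p under 0.05. The count was 1 without Cre/+ replicate 2 or 3 and 4 without Cre/Cre replicate 2. With Xist as a covariate it was 2, *Pou4f1* and *Ebf1*. In the libraries without Y-linked transcripts, with a single Cre/Cre library, the median over the members was -0.0084, against -0.26 in the main fit. Shares of all genes were not computed in these fits.

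Over the number of knock-in alleles, *Pou4f2* fitted a log2 fold change of -0.23 per allele (-0.37 to -0.08, unadjusted p = 0.00471 in limma, adjusted p = 0.669), *Isl2* -0.17 (adjusted p = 0.767) and *Pou4f1* -0.12 (adjusted p = 0.78). These 3 of 9 members were lower at an unadjusted p under 0.05, where 4.82% of all genes were, 0 were higher, against 1.42%, and 9 of 9 were below 0, against 57.7%. The trend uses the same libraries as the comparisons with +/+ and adds no evidence to them. With Xist as a covariate, 0 members were lower at an unadjusted p under 0.05 in this trend, and without +/+ replicate 2 the count was 1, *Pou4f2*. In the 6 libraries without Y-linked transcripts, which hold a single Cre/Cre library, *Pou4f2* was at -0.098 per allele. Shares of all genes were not computed in these fits.

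Other genes of the pathway were taken from lists. Upstream regulators of retinal neurogenesis had 18 of 18 genes tested and 0 called in Cre/Cre against +/+, with 4 lower and 0 higher at an unadjusted p under 0.05 and a median log2 fold change of -0.08. Over all genes, 5.39% were lower and 1.58% higher in this comparison, 57.7% were below 0, and the median was -0.02. *Neurog2*, a proneural factor of progenitors, had 6.29 ± 0.623 TPM in +/+ and 4.39 ± 0.635 in Cre/Cre (n = 3 each) and a log2 fold change of -0.44 (limma, adjusted p = 0.655). *Sox2*, kept in adult Müller glia and some amacrine cells, had -0.23 (adjusted p = 0.624), and *Rax*, an eye field gene kept in Müller glia, -0.18 (adjusted p = 0.655).

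Among 22 other transcription factors of ganglion cells and their subsets, 19 were tested and 0 were called in Cre/Cre against +/+, with 4 lower and 0 higher at an unadjusted p under 0.05 against the same 5.39% and 1.58% of all genes, and a median log2 fold change of -0.13 beside -0.02. *Neurod2* had 19.0, 19.3 and 21.3 TPM in +/+ and 13.3, 15.2 and 16.5 TPM in Cre/Cre, without overlap, and a log2 fold change of -0.39 (limma, adjusted p = 0.542). *Onecut1*, shared with horizontal cells, had -0.43 and *Irx4* -0.40 (limma, adjusted p = 0.655 for both). Of 9 family relatives of the members 8 were tested and 0 were called, with 0 lower and 0 higher at an unadjusted p under 0.05 in limma. All 8 of 8 were below 0, against 57.7% of all genes, with a median of -0.14.

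The mature ganglion cell genes lay on the same side of +/+ as the fate factors. Of 22 genes, *Rbpms*, the edited locus itself, was the only gene called lower in Cre/Cre against +/+ (log2 fold change -0.96, limma, adjusted p = 0.000581). How much of the value of *Rbpms* comes from the insertion in its own RNA, and how much from a change in ganglion cells, was not tested. With *Rbpms* counted, 12 were lower and 0 higher at an unadjusted p under 0.05 in limma (all genes 5.39% and 1.58%). The log2 fold change was below 0 in 22 of 22 (all genes 57.7%), with a median of -0.21 beside -0.02. The neurofilament gene *Nefh* had a log2 fold change of -0.42 (adjusted p = 0.126), *Sncg*, for gamma-synuclein, -0.43 (adjusted p = 0.133), and *Thy1*, a surface protein of ganglion cells, -0.31 (adjusted p = 0.45). Their summed TPM was 2877 to 2938 in +/+, 2721 to 2833 in Cre/+ and 2160 to 2607 in Cre/Cre, without overlap between the genotypes, and the lowest was again Cre/Cre replicate 1. The summed TPM of 9 amacrine genes, 886 to 925 in +/+, 888 to 928 in Cre/+ and 812 to 910 in Cre/Cre, overlapped. That of 7 bipolar genes was 817 to 928 in +/+ and 686 to 867 in Cre/Cre. That of 9 vessel genes was 211 to 232 in +/+, 199 to 219 in Cre/+ and 178 to 209 in Cre/Cre, where Cre/Cre lay below +/+ without overlap. In Cre/Cre against +/+, 9 of 9 amacrine, 7 of 7 bipolar and 4 of 4 horizontal genes tested were also below 0. The same held for 6 of 6 Müller glial, 3 of 3 astrocyte and 7 of 8 rod and cone genes. Medians of these lists ran from -0.14 (horizontal) to -0.07 (amacrine). Counts were 5 of 8 for vessel, 3 of 5 for microglia, 2 of 5 for blood, 2 of 7 for lens and 1 of 5 for pigment epithelium. The direction was thus not particular to ganglion cell genes. How far these lists account for the values of the fate factors was not tested.

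The genes whose pattern over the 9 libraries was most like each member were found by the root mean square difference of log2(TPM + 1), each centred on its own mean, among genes of at least 10 mean TPM. For *Pou4f1* they were *Pim2* (0.04) and *Shtn1* (0.04), where the member's own spread was 0.15. For *Pou4f2* they were *Cyb5r3* (0.08) and *Fxyd1* (0.09), against a spread of 0.24. *Fxyd1* had 96.7, 101 and 90.2 TPM in +/+, 74.6, 83.4 and 72.4 TPM in Cre/+, and 61.5, 90.8 and 68.6 TPM in Cre/Cre. Its order of libraries within each knock-in genotype was that of *Pou4f2*. It was picked for its likeness over these libraries, so the shared order is no separate result. *Isl2* was nearest to *Dhrsx* and Gm15417, *Pou4f3* to *Triqk* and *Fastkd1*, *Tbr1* to *Afap1* and *Fam20c*, *Ebf1* to *Tgfbr1* and *Pcdh10*, *Sox11* to *Tmsb15b2* and *Acot9*, and *Sox4* to *Lix1l* and *Fam163a*. *Atoh7* had the least close neighbours, Mir6991 (0.29) and *Mdk* (0.36), against its own spread of 0.57.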

How the data were processed

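RNA-Seq of whole P42 retinas of 3 +/+, 3 Cre/+ and 3 Cre/Cre mice was used, grouped by the genotype in the labels. Nothing in the labels pairs the replicates or names the mice, so p-values measure the spread between these libraries.

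The authors made strand-specific poly(A) libraries, used Trimmomatic for trimming, HISAT2 for alignment to mm10, and StringTie for gene levels (versions not given in the sources used here). The deposited values are TPM, FPKM and coverage, a signal of mean reads per base. No counts are given, so DESeq2, named in the study's methods, was not run.

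TPM of rows with the same name were summed. Genes of at least 1 mean TPM over the 9 libraries were tested with limma 3.58.1 (trend, robust prior, R 4.3.3) on log2(TPM + 1), with 1 fit of all 9 libraries, 6 residual degrees of freedom and Benjamini-Hochberg adjustment over all 15198 genes. Fold changes on this scale understate those of low genes. Calls need an adjusted p of at most 0.05. An exact permutation test of 3 against 3 cannot go below 0.1 and was not used. Tested on simulated data for Cre/Cre against +/+ with 200 of 15198 genes lowered, 161 were recovered at 2-fold with 8 other calls, and 91 at 1.5-fold. The simulated noise was independent between genes, without the shared library differences of the real data. The lowered genes were drawn from all genes tested, so recovery at the low levels of the members was not tested.

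The members and lists were chosen with earlier results of these data known. From the lists, the 3 genes with the smallest p in Cre/Cre, any called gene, and *Rbpms*, *Thy1*, *Isl1*, *Sox12*, *Eomes* and *Ebf3* are named, except 1 gene that is not reported here. Blood, pigment epithelium, astrocyte, vessel, microglia, lens and retinal cell type lists were summed as checks of the libraries. The alternatives were a pseudocount of 0.1, no filter, FPKM, other scalings, a covariate, a replicate block, fewer libraries and no robust prior. Promoters are from RefSeq (GRCm38.p6), matched by symbol for 8 members.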

Additional observations from a re-analysis of the deposited data

How the results depend on the processing

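In all 20 alternatives for each comparison between genotypes, 9 of them leaving out a library, 0 members were called by limma. The replicate block, with numbers that did not pair the libraries (same-number correlations of deviations from -0.12 to 0.13, above 0.1 in 1 of 9 pairs, own number best in 5 of 18), also gave 0 called members, and left the median log2 fold change of the members at -0.10 in Cre/+, -0.24 in Cre/Cre, -0.26 between the knock-in genotypes and -0.12 per allele. The median stayed below 0, from -0.14 to -0.013 in Cre/+ and -0.28 to -0.13 in Cre/Cre against +/+, and moved from -0.26 to -0.0084 between the knock-in genotypes in the libraries without Y-linked transcripts, an alternative chosen after seeing the data, where the cause was not tested.

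Some log2 fold changes near 0 changed sign. With Xist as a covariate *Sox4* in Cre/+ was 0.0041 (from -0.022). With Rn45s and short RNA genes left out, *Pou4f3* was 0.019 in Cre/Cre against +/+ and 0.0094 per allele. With median-ratio scaling and without Cre/Cre replicate 1, also chosen after seeing the data, *Pou4f3* was 0.091 in Cre/Cre and 0.063 per allele, *Ebf1* 0.0051 per allele, and *Atoh7* 0.31 in Cre/Cre against Cre/+. In the libraries without Y-linked transcripts *Pou4f3* was 0.23 in Cre/Cre against +/+, 0.094 against Cre/+ and 0.12 per allele, *Ebf1* 0.028 per allele, and against Cre/+ *Sox4* was 0.037 and *Atoh7* 0.25. Leaving out a library gave -0.00029 to 0.063 for *Pou4f1* and -0.059 to 0.030 for *Sox4* in Cre/+, -0.15 to 0.11 for *Pou4f3* and -0.20 to 0.0046 for *Ebf1* in Cre/Cre against +/+, -0.074 to 0.096 for *Tbr1* and -0.49 to 0.33 for *Atoh7* in Cre/Cre against Cre/+, and -0.053 to 0.074 for *Pou4f3* and -0.11 to 0.016 for *Ebf1* per allele. The cause of these was not tested. Counting error per gene cannot be had without counts.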
